A study of Mus musculus with 8 samples.

Results

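Integrins, laminins and collagens were followed in AML12 cells after 1 h of Opti-ELF-WMF. The members are the rows of the expression tables whose gene symbol names an integrin alpha or beta chain, a laminin alpha, beta or gamma chain, or a numbered collagen chain. The rule found 86 of 55401 rows. They comprise 27 integrin chains, 11 laminin chains, 44 collagen chains and 4 rows whose symbol matches the integrin pattern but whose product is no integrin chain (Itgb1bp1, Itgb1bp2, Itgb3bp and Itgbl1). AML12 cells are hepatocytes that were established in culture from a mouse with a transgene for human TGF-alpha. The control group was 4 dishes incubated for 1 h with the stimulator off. The Opti-ELF-WMF group was 4 dishes incubated for 1 h under a pulsed magnetic field of 10 µT (100 mG), with 4 ms pulses whose frequency climbed from 1 to 8 Hz. The dishes came from a single batch of cells of 1 line, and control dishes stood in another incubator of the same model, so exposure and incubator cannot be told apart and p-values measure only the spread between dishes.

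Integrins are transmembrane receptors made of 1 alpha and 1 beta chain, and the pairing sets which matrix protein the receptor binds. Laminins are trimers of an alpha, a beta and a gamma chain that polymerize into the sheet of a basement membrane, where type IV collagen forms a second network. Other collagens build fibrils, sit on the surface of fibrils, anchor a basement membrane to the tissue beneath it, or carry large glycosaminoglycan chains. In the liver, hepatocytes face the blood across a matrix without a continuous laminin sheet, whereas bile ducts rest on a laminin and type IV collagen basement membrane, and fibrillar collagens are made mostly by stellate cells and fibroblasts.

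The deposited values are TPM, a unit corrected for gene length and set to the same total in each sample, so levels of different chains can be compared and the depth of each library is unknown. From 19386 to 20114 genes were detected per dish (TPM above 0). Pearson's r of log2(TPM + 1) across the tested genes, a description since genes are no replicates, was 0.9907 to 0.9941 for all pairs of dishes. Mitochondrial transcripts held 8.69 to 9.42% of TPM in control dishes and 5.99 to 7.69% in exposed dishes, and a smaller share of these raises the TPM of all other genes. Of the listed hepatocyte markers, 9 of 12 had a mean TPM of at least 1, among them Hnf4a (180 to 218 TPM) and Alb (46.1 to 58.2 TPM), whereas Ahsg, Cps1 and Asgr1 stayed at or below 0.17 TPM in every dish. Markers of cholangiocytes or progenitors were present for 6 of 8 genes, with Krt19 at 1101 to 1244 TPM. Epcam stayed at or below 0.13 TPM and Cftr at or below 0.56 TPM in every dish. Only 1 of 9 endothelial markers (Egfl7) and 1 of 11 leukocyte markers (Cd68) reached a mean TPM of 1. Of 12 stellate cell or fibroblast markers, only Vim did, and the other 11 summed to 0.62 to 2.01 TPM in control dishes and 0.71 to 1.39 TPM in exposed dishes. Control replicates 1 to 3 stood apart from the other 5 dishes in a few collagens of very low level, described at the end.

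A chain was counted as expressed where its TPM was at least 1 in at least 4 dishes. This left 12 integrin, 6 laminin and 10 collagen chains, with Itgb1bp1 and Itgb3bp, or 30 of the 86 members. The lowest chain inside this limit was Col4a6 with a mean TPM of 1.41, and the highest outside it was Col1a1 with 0.631. Of the 56 members outside, 40 had a mean TPM under 0.1, and 7 were listed at 0 in all dishes. The 3 families together held 0.158 to 0.166% of TPM.

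**Figure D1:**
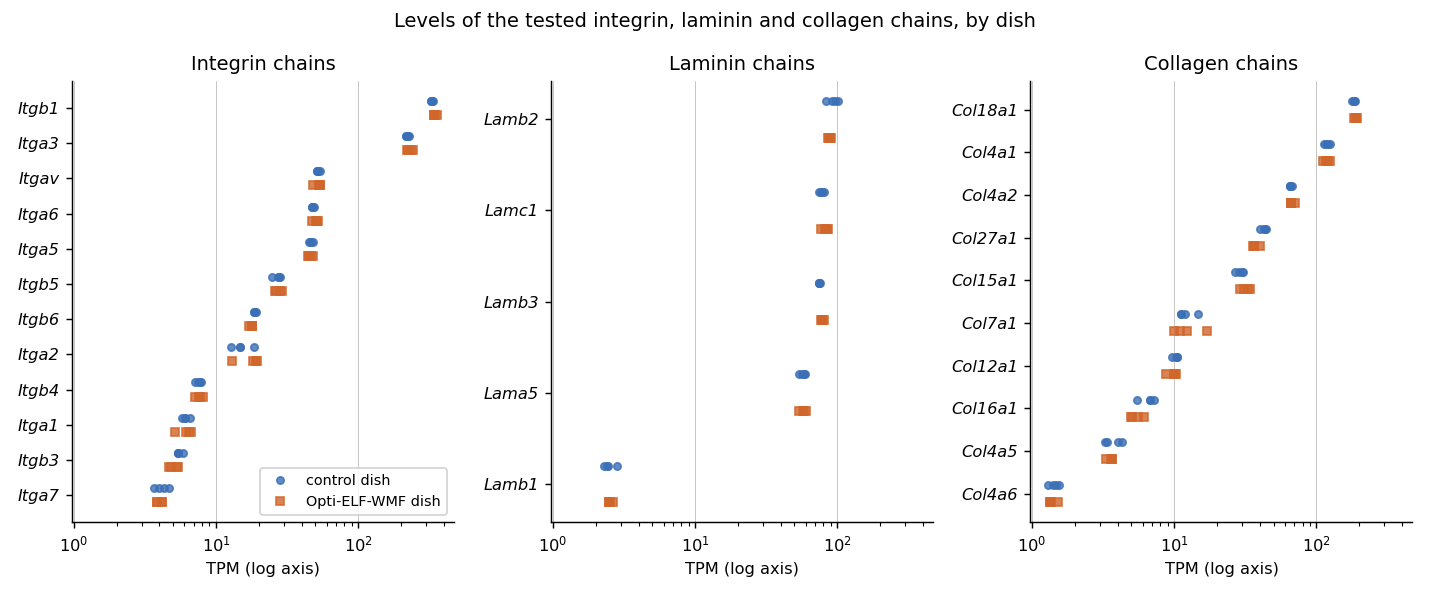
TPM of the expressed chains named in the text on a log axis, with control dishes as circles and Opti-ELF-WMF dishes as squares. Itgb1, Lamb2 and Col18a1 led their families, and levels of the expressed chains ran from 1.29 to 359 TPM.

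Among integrins, the RNA of beta1 and of alpha chains that pair with it to bind laminin, fibronectin or collagen was present. Itgb1, the beta chain shared by most of these receptors, was the most abundant at a mean of 339 TPM over the 8 dishes. Itga3, which pairs with beta1 to bind laminins, followed at 226 TPM. Itgav (52.2 TPM) and Itga5 (46.2 TPM), both alpha chains of receptors that recognize the RGD sequence of fibronectin and related proteins, lay close to Itga6 (49.2 TPM), a further laminin-binding chain, and neighbours in this order overlapped over the 8 dishes. The collagen-binding alpha chains were lower, with Itga2 at 16.3 TPM and Itga1 at 6.09 TPM. The laminin-binding Itga7 was the lowest expressed chain at 4.07 TPM.

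The beta chains that pair with the alpha v chain were Itgb5 (27.2 TPM), Itgb6 (18.2 TPM) and Itgb3 (5.29 TPM), and the ranges of these 3 did not overlap. Itgb6 is an epithelial chain whose receptor activates latent TGF-beta. Itgb4, which pairs only with the alpha6 chain in the hemidesmosomes of epithelia, stood at 7.57 TPM, and Itga6 was 6.08 to 6.79 times as abundant in each dish. The 15 integrin chains below the limit had means of at most 0.593 TPM. They included all 5 leukocyte alpha chains (Itgad, Itgae, Itgal, Itgam and Itgax), the leukocyte beta chains Itgb2 and Itgb7, the platelet chain Itga2b, both chains of the alpha4 and alpha9 group (Itga4 and Itga9), and Itga8, Itga10, Itga11, Itgb8 and Itgb2l. Exonic bases of Itga1 are shared with Gm49395 on the same strand (685 of 18599), so its level is less certain. On the opposite strand, Itgb4 shares 537 of 7015 with B230344G16Rik and Itgav 634 of 10744 with Gm13684. The kit was stranded, but whether the counting used the strand is not given, so these levels may be less certain too.

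Laminin chains were abundant for every position of the trimer, with an uneven choice of isoforms. Lama5 was the only expressed alpha chain, at 57.4 TPM. Lama4 (0.326 TPM), Lama2 (0.0588 TPM) and Lama3 (0.0138 TPM) were below the limit, and Lama1 was listed at 0 in all dishes. Lamb2 led the beta chains at 90.7 TPM, followed by Lamb3 at 76.6 TPM. Lamb1 reached 2.50 TPM, or 0.0239 to 0.0338 times Lamb2 in each dish. Of the gamma chains, Lamc1 stood at 80.1 TPM and Lamc3 was below the limit at 0.268 TPM. Lamb2, Lamc1 and Lama5 can form 1 trimer. The ratio of Lamb2 to Lama5 averaged 1.63 ± 0.17 in control and 1.53 ± 0.09 in exposed dishes, and that of Lamc1 to Lama5 averaged 1.36 ± 0.05 and 1.44 ± 0.11 (SD, n = 4 each). Lamb3 is known as a chain of the epithelial laminin whose alpha chain is encoded by Lama3, which did not exceed 0.02 TPM in any dish. Lamb2 and Lamc1, and Lamc1 and Lamb3, overlapped over the 8 dishes, whereas Lamb3 and Lama5 did not.

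Collagen RNA in these cells was mostly that of basement membranes. Col18a1, whose product carries heparan sulfate chains and holds the endostatin fragment, was the most abundant at 187 TPM. Col4a1 (119 TPM) and Col4a2 (66.9 TPM), the chains of the common type IV collagen network, came next, and these 3 held 77.7% of all collagen TPM. The other type IV chains were low, with Col4a5 at 3.65 TPM and Col4a6 at 1.41 TPM, and Col4a3 and Col4a4 below the limit. Col27a1, a fibrillar collagen best known from cartilage, stood at 39.9 TPM and was the only expressed chain of 11 fibrillar ones. Col15a1, the other collagen of the multiplexin class beside Col18a1, stood at 30.3 TPM. Col7a1, the anchoring fibril collagen, was at 12.4 TPM. Of the fibril-associated collagens, Col12a1 lay between 8.69 and 10.50 TPM and Col16a1 between 4.98 and 7.17 TPM, and the other 7 chains of that class were below the limit. Col7a1 and Col12a1 were the only neighbours in the order of levels whose ranges overlapped.

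No chain of the beaded filament class (6 chains, Col6a1 to Col6a6), the short-chain network class (Col8a1, Col8a2 and Col10a1) or the transmembrane class (Col13a1, Col17a1, Col23a1 and Col25a1) was expressed. The fibrillar Col1a1, Col1a2, Col2a1, Col3a1, Col5a1, Col5a2, Col5a3, Col11a1, Col11a2 and Col24a1 were below the limit as well. Col13a1, Col24a1, Col26a1 and Col28a1 were listed at 0 in all dishes.

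Col4a1 and Col4a2 are transcribed away from each other from a common start region, and the RefSeq windows of both genes (250 bases before to 50 after the start, GRCm38.p6) are shown because both genes of this divergent pair are expressed and their windows overlap. Col4a3 and Col4a4 on chromosome 1, and Col4a5 and Col4a6 on chromosome X, are likewise transcribed away from each other. The Col4a1 window lies on the minus strand at chr8:11312777-11313076 and the Col4a2 window on the plus strand at chr8:11312555-11312854. The annotated starts are 21 bases apart, the first exons overlap by 22 bases on opposite strands, and capitals mark the 78 bases that both windows hold, each on its own strand.
Col4a1: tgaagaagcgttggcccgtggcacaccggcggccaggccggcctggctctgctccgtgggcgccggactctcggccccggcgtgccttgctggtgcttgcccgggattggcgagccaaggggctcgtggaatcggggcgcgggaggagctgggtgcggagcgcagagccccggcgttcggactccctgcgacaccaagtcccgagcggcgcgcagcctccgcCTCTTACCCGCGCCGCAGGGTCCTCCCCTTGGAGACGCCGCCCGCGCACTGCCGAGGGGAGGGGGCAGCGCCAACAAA
Col4a2: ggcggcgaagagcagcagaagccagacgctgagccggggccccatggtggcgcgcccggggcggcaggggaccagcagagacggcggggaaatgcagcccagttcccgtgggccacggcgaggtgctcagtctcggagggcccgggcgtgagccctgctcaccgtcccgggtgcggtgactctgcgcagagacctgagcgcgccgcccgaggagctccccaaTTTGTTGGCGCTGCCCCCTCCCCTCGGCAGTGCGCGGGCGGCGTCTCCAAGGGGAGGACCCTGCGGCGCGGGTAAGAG
Despite the shared region, Col4a1 was 1.67 to 1.87 times as abundant as Col4a2 in every dish. The ratio averaged 1.81 ± 0.06 in control and 1.75 ± 0.08 in exposed dishes (SD, n = 4 each), and the conditions overlapped.

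The comparison of exposed with control dishes asked which of these genes differed after 1 h of the field. Across all 12122 tested genes, limma on log2(TPM + 1) with Benjamini-Hochberg adjustment called 0 genes at an adjusted p-value under 0.05 (0.0%), and 0 of the 30 tested members. The smallest adjusted p-value of a member was 0.122, for Col27a1. At an unadjusted p-value under 0.05, the fit held 1894 genes (15.6%), and 6 of the 30 members. Of these, 3 members were higher in exposed dishes (Itgb1, Lamb3 and Col15a1) against 12.0% of all tested genes, and 3 were lower (Col27a1, Col16a1 and Itgb6) against 3.65%. Exposed and control dishes were fully separate for 5 of 30 members, against 9.87% of all tested genes. Of these, 2 were higher (Itgb1 and Lamb3; 8.01% of all genes) and 3 lower (Col27a1, Itgb6 and Itgb3; 1.86% of all genes). A positive difference was found for 17 of 30 members, against 63.7% of all genes. These shares were not tested against the background.

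The families differed little as wholes. The median log2 difference, exposed minus control, was 0.0099 over the 12 integrin chains, 0.02 over the 6 laminin chains and -0.02 over the 10 collagen chains, beside 0.03 over all tested genes. The summed TPM of integrin chains was 776 to 790 in control dishes and 785 to 827 in exposed dishes. Laminin chains summed to 325 to 341 TPM in control dishes and 329 to 343 TPM in exposed dishes, and collagen chains to 473 to 490 and 471 to 490 TPM. The conditions overlapped in all 3 sums. The scaling of TPM decided part of the picture. Under median-of-ratios scaling, upper-quartile scaling or rescaling without mitochondrial genes, the median of all genes was -0.0013, -0.0053 and -0.0016, the integrin and laminin medians turned negative (-0.0216 to -0.0175 and -0.00423 to -0.000555), and 0 members were higher at an unadjusted p-value under 0.05 while 4, 4 and 3 were lower. The share of higher genes among all those below that threshold was 76.6% on the TPM as deposited and 47.1%, 42.3% and 50.0% after the same 3 scalings.

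**Figure D2:**
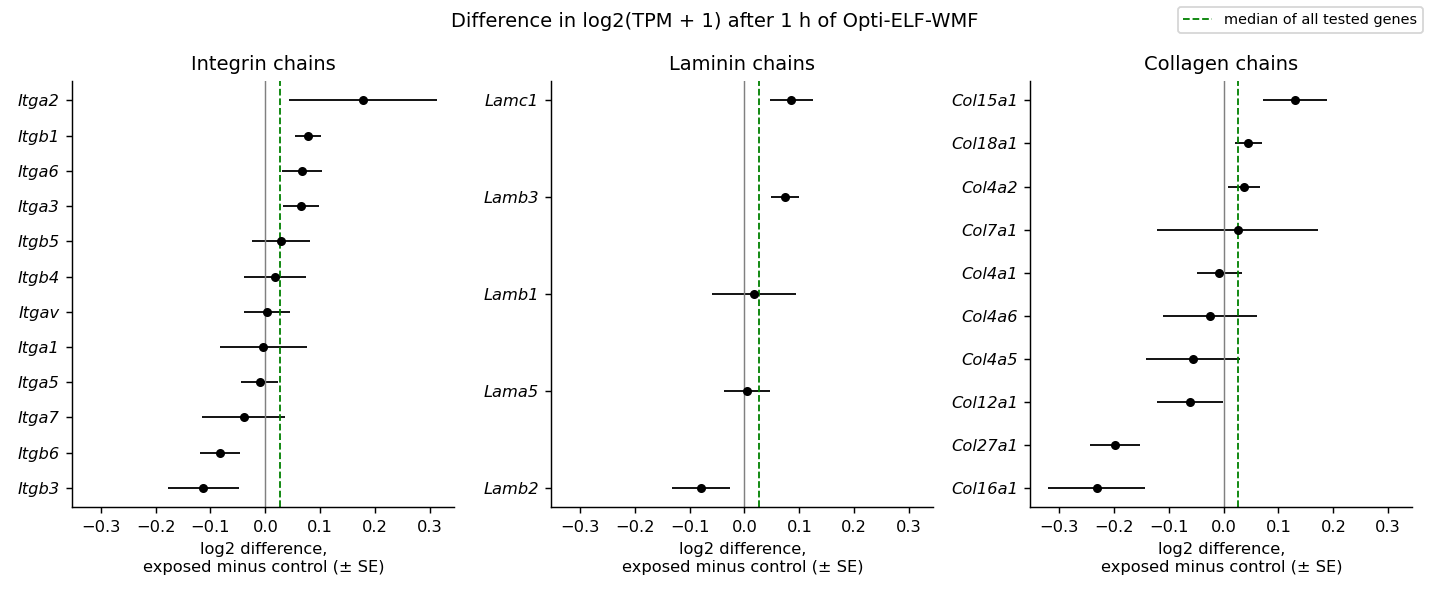
Log2 difference of the expressed chains named in the text, exposed minus control, with its standard error from limma, and the median of all tested genes (0.03) as a dashed line. Differences ran from -0.23 for Col16a1 to 0.18 for Itga2, and no chain shown had an adjusted p-value under 0.05.

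The beta1 chain had the smallest p-value among integrins. Itgb1 lies on chromosome 8 from 128685654 to 128733200. Its TPM was 337, 329, 325 and 327 in control dishes 1 to 4 and 344, 342, 359 and 347 in exposed dishes 1 to 4. Every exposed dish lay above every control dish, and the means were 330 ± 5.2 (SD, n = 4) and 348 ± 7.5 (SD, n = 4). The log2 difference was 0.08 (standard error 0.02, unadjusted p = 0.0086, adjusted p = 0.171, limma). Under the 3 other scalings it was 0.04 to 0.05, with unadjusted p-values of 0.0828 to 0.133 by limma, so that it did not pass the unadjusted threshold there. The separation of dishes is given here on the deposited TPM. Under each of these scalings the number of separate members fell from 5 to 4.

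The alpha chains that bind laminin together with beta1 did not reach an unadjusted p-value under 0.05 by limma. Itga3 had a TPM of 217, 216, 225 and 227 in control dishes and 222, 242, 226 and 236 in exposed dishes. The conditions overlapped, with a log2 difference of 0.06 (standard error 0.03, adjusted p = 0.382, limma). Itga6 had a TPM of 47.70, 48.67, 47.37 and 48.37 in control dishes and 47.21, 51.38, 52.47 and 50.47 in exposed dishes. In Itga6, 3 of 4 exposed dishes lay above all control dishes, and replicate 1 lay below them (log2 difference 0.07, standard error 0.04, adjusted p = 0.414, limma). Itga7, the least abundant of these chains, had a TPM of 4.28, 3.69, 4.64 and 3.95 in control dishes and 3.84, 4.15, 4.16 and 3.82 in exposed dishes, a difference smaller than its standard error. Itga2, a collagen-binding chain, had the highest difference of all members at 0.18, but also a wide standard error of 0.14 (adjusted p = 0.579, limma).

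The alpha v chain and its beta chains gave a mixed picture. Itgav had a TPM of 52.33, 51.51, 53.68 and 51.09 in control dishes and 47.91, 54.24, 53.16 and 53.90 in exposed dishes, with a difference of 0.0026 and a 95% interval of -0.09 to 0.10. Itgb6, on chromosome 2 from 60598292 to 60722643, had a TPM of 18.41, 18.61, 18.84 and 19.08 in control dishes and 16.95, 17.85, 17.86 and 17.89 in exposed dishes. All exposed dishes lay below all control dishes (log2 difference -0.08, standard error 0.04, unadjusted p = 0.0493, adjusted p = 0.318, limma). Itgb3 had a TPM of 5.40, 5.43, 5.41 and 5.87 in control dishes and 4.64, 5.39, 4.81 and 5.33 in exposed dishes. The conditions were again separate, by only 0.01 TPM between the highest exposed and the lowest control dish, and the log2 difference was -0.11 (standard error 0.07, adjusted p = 0.450, limma). Itgb5, which like these pairs with alpha v, had a difference of 0.03 (standard error 0.05). The ratio of Itgb5 to Itgb6 was 1.33 to 1.49 in control dishes and 1.45 to 1.64 in exposed dishes, which overlapped. Differences of Itgb4 (0.02), Itga5 (-0.01) and Itga1 (-0.0042) were smaller than their standard errors.

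The 2 expressed rows that share only the name pattern were Itgb1bp1, whose product binds the cytoplasmic tail of the beta1 chain (24.9 TPM, log2 difference 0.05, standard error 0.08, adjusted p = 0.797 by limma), and Itgb3bp, a centromere protein (6.02 TPM, log2 difference -0.12, standard error 0.11, adjusted p = 0.659 by limma). Both share exonic bases with genes on the opposite strand.

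Among laminins, Lamb3 was separate between the conditions. It lies on chromosome 1 from 193207699 to 193343878. Its TPM was 74.55, 73.89, 74.27 and 75.67 in control dishes and 78.53, 80.74, 76.93 and 78.08 in exposed dishes. Each exposed dish exceeded each control dish, with means of 74.6 ± 0.77 (SD, n = 4) and 78.6 ± 1.6 (SD, n = 4), and the log2 difference was 0.07 (standard error 0.03, unadjusted p = 0.0171, adjusted p = 0.210, limma). The other scalings gave 0.04, with unadjusted p-values of 0.0860 to 0.107 by limma.

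The chains that can join Lama5 had differences of opposite sign, and none reached an unadjusted p-value under 0.05 by limma. Lamc1, a gamma chain of most laminins, had a TPM of 74.52, 80.29, 77.47 and 78.46 in control dishes and 77.02, 86.30, 84.60 and 82.21 in exposed dishes (log2 difference 0.09, standard error 0.04, adjusted p = 0.343, limma). Here 3 of 4 exposed dishes lay above all control dishes. Lamb2 had a TPM of 92.27, 101.27, 83.37 and 96.38 in control dishes and 86.95, 86.28, 88.68 and 90.25 in exposed dishes (log2 difference -0.08, standard error 0.05, adjusted p = 0.511, limma). Control replicate 3 was the lowest of all dishes for Lamb2, and the difference was -0.13 without it and -0.04 without control replicate 2, the highest. Lama5 itself differed by 0.0047, with a 95% interval of -0.09 to 0.10, and Lamb1 by 0.02, with an interval of -0.15 to 0.19.

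Of the collagens, Col27a1 had the smallest p-value of any member. It lies on chromosome 4 from 63214004 to 63334991. Its TPM was 39.94, 44.35, 42.67 and 43.64 in control dishes and 36.01, 36.21, 36.15 and 39.89 in exposed dishes, so that the highest exposed dish lay just under the lowest control dish. The means were 42.7 ± 1.9 (SD, n = 4) and 37.1 ± 1.9 (SD, n = 4), which is 13.1% lower. The log2 difference was -0.20 (standard error 0.05, unadjusted p = 0.0016, adjusted p = 0.122, limma), between -0.23 and -0.18 with each dish left out in turn and -0.23 under each of the 3 other scalings. Its adjusted p-value stayed between 0.117 and 0.280 in all 16 alternatives.

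Col16a1, a collagen found on the surface of fibrils, lies on chromosome 4 from 130047840 to 130099283. Its TPM was 7.17, 6.77, 6.78 and 5.51 in control dishes and 4.98, 5.04, 6.16 and 5.55 in exposed dishes. Control replicate 4 lay within the exposed range, and the log2 difference was -0.23 (standard error 0.09, unadjusted p = 0.0272, adjusted p = 0.249, limma). Col12a1 of the same class had a TPM of 10.46, 9.68, 10.25 and 10.50 in control dishes and 8.69, 10.35, 9.90 and 10.14 in exposed dishes, with a log2 difference of -0.06 (standard error 0.06).

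Col15a1, on chromosome 4 from 47208161 to 47313167, had a TPM of 30.26, 26.81, 28.58 and 29.97 in control dishes and 30.78, 34.16, 33.10 and 29.02 in exposed dishes. The conditions overlapped, and the log2 difference was 0.13 (standard error 0.06, unadjusted p = 0.0486, adjusted p = 0.315, limma). Its relative Col18a1 had a TPM of 185, 184, 179 and 187 in control dishes and 192, 193, 185 and 189 in exposed dishes, a log2 difference of 0.05 (standard error 0.02, adjusted p = 0.418, limma).

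No chain of type IV collagen reached an unadjusted p-value under 0.05 by limma. Col4a1 had a TPM of 114, 118, 121 and 125 in control dishes and 112, 122, 125 and 117 in exposed dishes. Its log2 difference was -0.0078, with a 95% interval of -0.10 to 0.08. Col4a2 had a TPM of 65.72, 65.61, 64.93 and 67.80 in control dishes and 66.84, 70.58, 66.85 and 66.92 in exposed dishes. All exposed dishes lay above the control mean but overlapped the control dishes, with a difference of 0.04, a standard error of 0.03 and an interval of -0.03 to 0.10. Col4a5 (-0.06, standard error 0.09), Col4a6 (-0.03, standard error 0.09) and Col7a1 (0.03, standard error 0.15) differed by less than their standard errors. Col7a1 varied most, with 17.1 TPM in exposed replicate 3 against 10.04 to 12.33 TPM in the other exposed dishes.

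**Figure D3:**
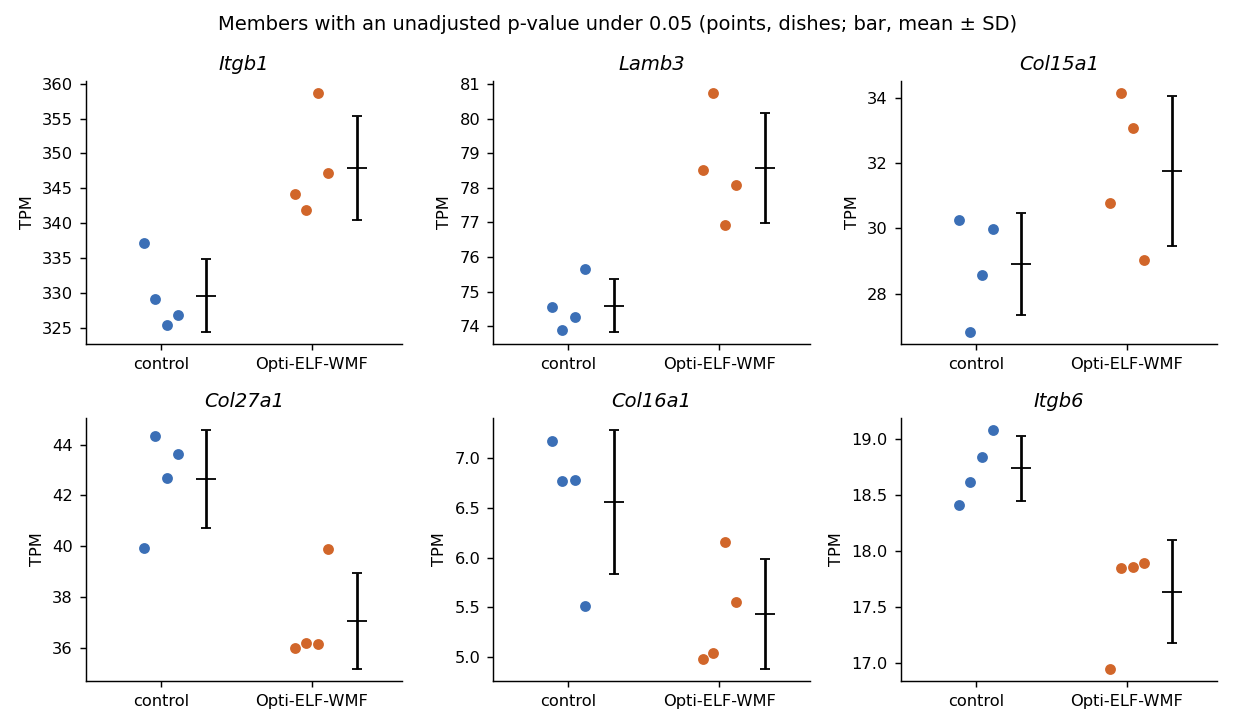
TPM by dish of the 6 members with an unadjusted p-value under 0.05, with the mean and SD of each condition beside the points on an axis that does not start at 0. Itgb1 and Lamb3 lay higher and Col27a1 and Itgb6 lower in every exposed dish than in any control dish, whereas Col15a1 and Col16a1 overlapped.

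The promoter windows of the 4 separated members with an unadjusted p-value under 0.05 are given so that the genes higher and lower in exposed dishes can be set side by side. They come from RefSeq on GRCm38.p6 and run from 250 bases before to 50 after the start. Itgb1 is at chr8:128685404-128685703 on the plus strand, Lamb3 at chr1:193301744-193302043 on the plus strand (the more upstream of its RefSeq starts), Col27a1 at chr4:63215162-63215461 on the plus strand and Itgb6 at chr2:60722554-60722853 on the minus strand (again the more upstream start). The RefSeq starts of Lamb3 and Col27a1 lie inside the genes as GENCODE places them. Capitals mark matches on either strand to the GC box (letters GGGCGG), the CCAAT box, the TATA box (letters TATAAA) or the AP-1 site (letters TGANTCA).
Itgb1: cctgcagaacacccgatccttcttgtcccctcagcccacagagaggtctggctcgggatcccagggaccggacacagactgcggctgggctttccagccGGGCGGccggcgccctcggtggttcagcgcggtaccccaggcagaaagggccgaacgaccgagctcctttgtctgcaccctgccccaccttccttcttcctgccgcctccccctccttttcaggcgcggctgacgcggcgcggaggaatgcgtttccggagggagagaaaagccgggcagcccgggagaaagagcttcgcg
Lamb3: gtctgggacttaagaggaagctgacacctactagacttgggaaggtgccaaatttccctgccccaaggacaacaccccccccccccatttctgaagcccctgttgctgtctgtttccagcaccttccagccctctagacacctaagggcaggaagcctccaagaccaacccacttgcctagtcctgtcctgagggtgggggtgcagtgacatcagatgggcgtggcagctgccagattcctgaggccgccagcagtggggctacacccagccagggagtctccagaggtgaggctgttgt
Col27a1: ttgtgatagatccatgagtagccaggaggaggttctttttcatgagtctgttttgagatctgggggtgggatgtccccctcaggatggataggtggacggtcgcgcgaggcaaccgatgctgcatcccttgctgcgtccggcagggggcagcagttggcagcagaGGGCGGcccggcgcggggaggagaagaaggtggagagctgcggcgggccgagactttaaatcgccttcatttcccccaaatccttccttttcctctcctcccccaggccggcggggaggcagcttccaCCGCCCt
Itgb6: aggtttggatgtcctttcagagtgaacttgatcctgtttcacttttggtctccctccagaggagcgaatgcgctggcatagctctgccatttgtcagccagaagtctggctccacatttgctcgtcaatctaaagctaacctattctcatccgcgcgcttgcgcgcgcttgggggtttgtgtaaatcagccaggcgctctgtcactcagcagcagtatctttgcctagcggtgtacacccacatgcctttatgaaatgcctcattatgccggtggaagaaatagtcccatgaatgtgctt
Itgb1 held 1 GC box and Col27a1 held 2, whereas the Lamb3 and Itgb6 windows held none of the 4 motifs. Windows were found for 23 of the 30 expressed members (27 windows, since some genes have several starts). Of these, 17 (63.0%) held a GC box against 35.7% of all 32851 windows, 8 (29.6%) held a CCAAT box against 37.4%, 0 held a TATA box against 13.6%, and 1 held an AP-1 site against 7.81%. The members are expressed genes, whereas the 32851 windows were not limited to expressed genes, and the Col4a1 and Col4a2 windows overlap. These shares can therefore not be read as a trait of the families. A match is a description of the letters and not a site of binding.

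**Figure D4:**
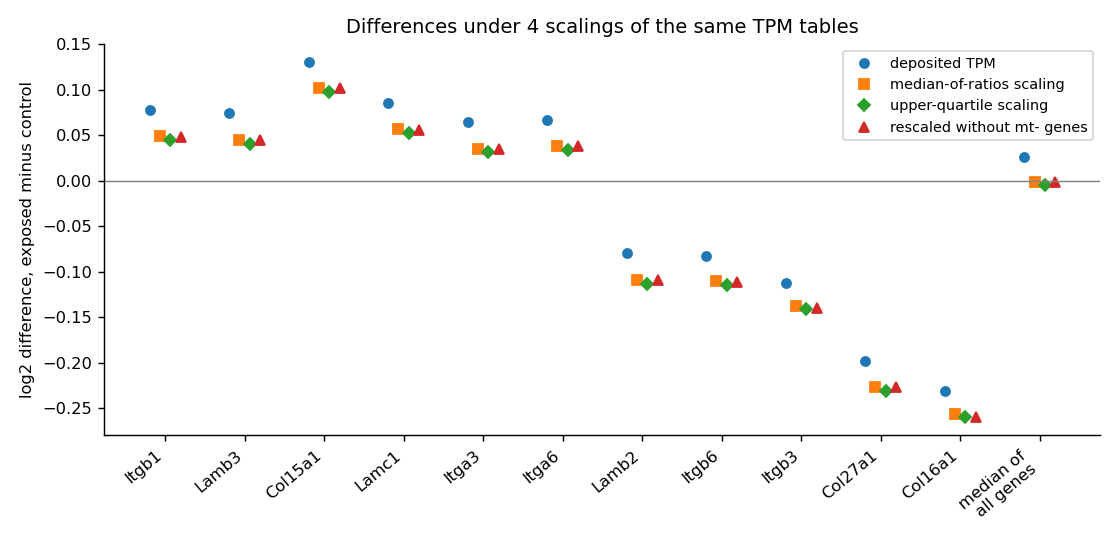
Log2 difference, exposed minus control, of 11 members and of the median gene on the deposited TPM and under 3 other scalings. Each scaling lowered every value by a like amount, so Itgb1 went from 0.08 to between 0.04 and 0.05 and Col27a1 from -0.20 to -0.23.

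Genes that work beside these families were read from lists written by hand. Their counts, medians and levels are given on the deposited TPM alone, not under the 3 other scalings. In the list of focal adhesion and integrin activation genes, 31 of 32 were tested, 27 had a positive difference (63.7% of all tested genes did), and the median was 0.05 beside 0.03 over all genes. Of these, 3 were higher and 1 lower at an unadjusted p-value under 0.05, where 12.0% of all genes were higher and 3.65% lower, and 0 passed adjustment by limma. Parva, which links the integrin-linked kinase to actin, had the smallest p-value, with 178 ± 1.9 TPM in control and 188 ± 2.2 TPM in exposed dishes (SD, n = 4 each, adjusted p = 0.150, limma), and Kank1, an adaptor at the rim of focal adhesions, was the lower gene at 4.75 ± 0.52 and 3.83 ± 0.44 TPM (SD, n = 4 each). Collagen-processing genes numbered 25 tested of 35 listed, with 3 higher and 0 lower at an unadjusted p-value under 0.05 by limma (12.0% and 3.65% of all genes) and a median of 0.0096. Ppib, a prolyl isomerase of the endoplasmic reticulum, was 513 ± 13 and 540 ± 13 TPM (SD, n = 4 each), and P4ha1, a prolyl hydroxylase chain, had the smallest p-value in the other direction (log2 difference -0.08, adjusted p = 0.372, limma).

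Other matrix and basement membrane genes (19 tested of 37) included 2 higher and 2 lower at an unadjusted p-value under 0.05 by limma, with a median of 0.03. The shares over all genes, 12.0% higher and 3.65% lower, are the background of these counts and of those of the lists that follow. Fbln2, a basement membrane glycoprotein, was 184 ± 4.6 and 194 ± 5.0 TPM, and Postn, a matricellular protein, was 1.84 ± 0.44 and 0.882 ± 0.235 TPM (SD, n = 4 each). The log2 difference of Postn was -0.59 (standard error 0.14, adjusted p = 0.129, limma). The summed stellate cell and fibroblast markers given above overlapped between the conditions, and their part in the values of Postn was not tested. Non-integrin matrix receptors (9 tested of 16, median 0.01) included 2 higher and 0 lower by limma, with Sdc1, a heparan sulfate proteoglycan, at 124 ± 2.9 and 132 ± 3.7 TPM and Bcam, a receptor for Lama5-containing laminins, at 5.33 ± 0.42 and 4.92 ± 0.32 TPM (SD, n = 4 each). Matrix proteases and inhibitors (10 tested of 24, median -0.0078) included 2 higher and 1 lower by limma. Timp1, an inhibitor of matrix metalloproteinases, was 132 ± 4.6 and 144 ± 4.4 TPM, and the protease Adamts1 was 7.25 ± 0.37 and 6.35 ± 0.51 TPM (SD, n = 4 each). In each of these lists 0 genes passed adjustment over all genes.

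Among members below the limit, some collagens of fibroblasts followed a split that was not that of the conditions. Col1a2, the second chain of type I collagen, had a TPM of 0.37, 0.28, 0.41 and 0.01 in control dishes and 0.02, 0.01, 0.01 and 0 in exposed dishes. Col6a3, a chain of microfibrils, had 0.27, 0.20, 0.10 and 0.02 in control dishes and 0.03, 0.02, 0.02 and 0.02 in exposed dishes. Control replicates 1 to 3 were thus high and control replicate 4 stood with the exposed dishes. Col6a2 had 0.23, 0.13, 0.25 and 0.06 in control dishes and 0.01, 0.03, 0.11 and 0.01 in exposed dishes. Col3a1 had 0.20, 0.08, 0.22 and 0 in control dishes, but its highest value, 0.47, was in exposed replicate 3. Col1a1, the most abundant of this kind, had 0.61, 1.20, 0.77 and 0.30 in control dishes and 0.36, 1.12, 0.33 and 0.36 in exposed dishes. Among the other stellate cell and fibroblast markers, Pdgfrb followed the same split at lower values, with 0.04, 0.02 and 0.05 TPM in control replicates 1 to 3 and 0 in the other 5 dishes. Acta2 did not, with 0.11 to 0.35 TPM in control and 0.05 to 0.32 TPM in exposed dishes. Dcn, Des and Reln did not follow it either. Des (0.16 TPM) and Reln (0.06 TPM) were highest in exposed replicate 4, and Dcn was at 0 in control replicate 3. Lum and Lrat were listed at 0 in all dishes, Pdgfra stayed at or below 0.03 TPM, and Vim was at 1304 to 1509 TPM. The part of such cells in these values was not tested. In bulk samples fewer cells of a type and less RNA per cell cannot be told apart. These chains were tested only in the alternative that kept every gene with a TPM above 0 in any sample.

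**Figure D5:**
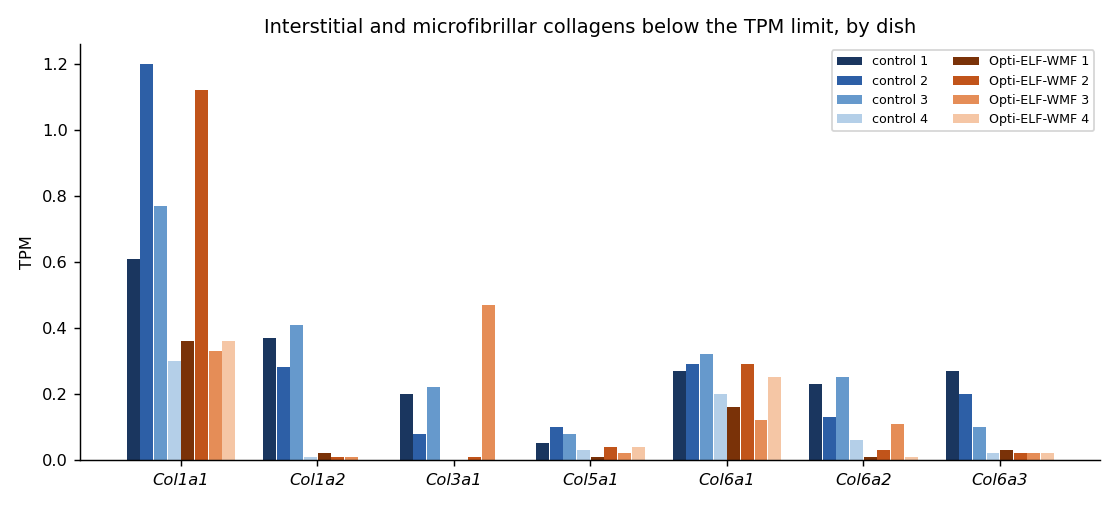
TPM by dish of 7 collagen chains below the expression limit, with control dishes in blue and Opti-ELF-WMF dishes in orange. Col1a2 and Col6a3 were at 0.10 TPM or more only in control replicates 1 to 3, whereas Col1a1 was also at 1.12 TPM in Opti-ELF-WMF replicate 2.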

How the data were processed

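RNA-seq of 4 control and 4 Opti-ELF-WMF dishes of AML12 cells was analysed from the tables of TPM that the authors deposited, 1 table of 55401 genes per dish. Libraries were made from total RNA with a stranded mRNA kit and read as paired ends. The submitters' processing notes name Trimmomatic 0.39, STAR 2.7.4a, RSEM 1.3.3 and mm10 without their roles, and the annotation is not given in the sources used here. TPM sums to 1000000 per sample and keeps no depth, so no counting interval or detection floor is given.

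The 12122 genes that reached a TPM of 1 in 4 or more samples were tested on log2(TPM + 1) with limma 3.58.1 (lmFit, eBayes with a trend) in R 4.3.3, two-sided, with Benjamini-Hochberg adjustment over all tested genes. Differences on this scale understate the change of low genes. The script was tested on simulated data. Groups and replicate numbers came from the sample titles. The members and lists were chosen with earlier results of these data known, so no p-value is given for a list or a score. Expressed members are named, except 1 that is not reported here and enters only the counts, sums and medians. Values of every dish are given for the 3 most abundant chains of each family and, among both its higher and its lower chains, for the 3 of smallest p-value. Each list is represented by its higher and its lower gene of smallest p-value. A difference under 1 standard error is given no direction. All 86 members were placed by Ensembl identifier with GENCODE M21 (GRCm38), and promoter windows are those of RefSeq. The alternatives were another pseudocount, 2 other filters, 3 other scalings, limma without trend, a fit with the replicate number as a block, and a fit without each dish in turn.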

Additional observations from a re-analysis of the deposited data

Results flagged for a closer look

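The 30 tested members give 60 groups of 4 dishes. In 7 of them the highest or lowest dish was farther from its nearest neighbour than Dixon's 95% limit allows, and about 3 would be found by chance alone. In exposed dishes, Col4a2 was 70.58 TPM in replicate 2 against 66.84 to 66.92, and Col27a1 was 39.89 TPM in replicate 4 against 36.01 to 36.21. Col4a5 was 3.31 TPM in replicate 4 against 3.61 to 3.67, and Col4a6 was 1.53 TPM in replicate 3 against 1.33 to 1.35. Itgav was 47.91 TPM in replicate 1 against 53.16 to 54.24, and replicate 1 also had the lowest value of Itgb6, 16.95 TPM against 17.85 to 17.89. In control dishes, Itgb3 was 5.87 TPM in replicate 4 against 5.40 to 5.43. Without Opti-ELF-WMF replicate 4 the log2 difference of Col27a1 was -0.23, and without replicate 1 that of Itgb6 was -0.06.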

How the results depend on the processing

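Of the 30 tested members, 16 differed by at least 1 standard error, and all 16 kept their sign in each of the 16 alternatives run. Of the other 14, 12 changed sign in at least 1. No member had an adjusted p-value under 0.05 in any alternative (lowest 0.117, limma). Over all genes, 1 gene did with TPM of at least 1 in every sample, median-of-ratios scaling, upper-quartile scaling or limma without trend, and from 0 to 2 did with each dish left out. The 6 members with an unadjusted p-value under 0.05 became 3 under rescaling without mt- genes, 9 when all genes with a TPM above 0 in any sample were tested, and from 3 (without Opti-ELF-WMF replicate 2) to 7 (without Opti-ELF-WMF replicate 1) with dishes left out. The 9 included Col1a2, Col6a2, Col6a3 and Col8a2, chains below the expression limit that were lower in exposed dishes. Of these, Col1a2 and Col6a3 showed the split of control replicates 1 to 3 described above. Col8a2 followed it at lower values, with 0.04, 0.03 and 0.05 TPM in control replicates 1 to 3 and 0 in the other 5 dishes. In Col6a2, those replicates were at 0.13 to 0.25 TPM and the other dishes at 0.01 to 0.11 TPM. Members whose conditions did not overlap numbered 5 on the deposited TPM and 4 under each of the 3 other scalings. With dishes left out they numbered from 5 to 7. With dishes left out, the laminin median ran from 0.0063 to 0.067 (without control replicate 3), the collagen median from -0.061 (without Opti-ELF-WMF replicate 3) to 0.0046, and the integrin median from -0.0092 to 0.045. The 3 other scalings turned the integrin median from 0.0099 to between -0.0216 and -0.0175 and the laminin median from 0.024 to between -0.00423 and -0.000555, and gave a collagen median of -0.0431 to -0.0396 in place of -0.016. Leaving out a dish makes overlap less likely by construction, and the cause of the other shifts was not tested. Dishes of the same number did not deviate together across all genes (correlations of deviations from -0.042 to 0.026). The sample titles give only a number, and a correlation over all genes cannot exclude a pairing. With the replicate block, no gene passed the adjusted threshold by limma (0 genes, 0 members), 1889 genes had an unadjusted p-value under 0.05, and 6 members did, with Itga2 and Lamc1 in place of Col15a1 and Itgb6. TPM keeps no depth, so the counting error of the low chains is unknown.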

Other observations

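Sums of chains that can pair were close in these cells. The alpha chains that pair with beta1 and were expressed, other than Itgav (Itga1, Itga2, Itga3, Itga5, Itga6 and Itga7), summed to 333 to 369 TPM, and Itgb1 was 0.927 to 1.03 times that sum in each dish. Itgav was 0.967 to 1.09 times the sum of Itgb3, Itgb5 and Itgb6. These sums were chosen after the values were seen, the alpha v chain also pairs with beta1 and the alpha6 chain with beta4, and RNA levels do not give the amount of receptor.

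The split of Col1a2 and Col6a3 was looked for in all 55401 rows after it had been seen. The rule asked for a TPM of at least 0.1 in each of control replicates 1 to 3. Each of the other 5 dishes had to lie at or below the lowest of these divided by 3. The rule was met by 16 rows. Of these, 11 carried a Gm symbol of predicted genes, and 2 were Col1a2 and Col6a3, the members it was drawn from. No other choice of 3 dishes was counted, so the 16 rows have no background to be read against. Mgp, a matrix protein of smooth muscle and cartilage, was among them, with 1.10, 0.33 and 1.39 TPM in control replicates 1 to 3 and 0 in the other 5 dishes. Bgn, a small proteoglycan of fibroblasts, had 0.33, 0.30 and 0.45 TPM in those dishes, 0.04 in control replicate 4 and 0.03 to 0.22 in exposed dishes. Postn had 1.76, 2.12 and 2.22 TPM in control replicates 1 to 3, 1.25 in control replicate 4 and 0.64 to 1.19 in exposed dishes. Bgn and Postn did not meet the rule, and every control dish of Postn lay above every exposed dish. Whether any of these values share a cause was not tested.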
